A study of Mus musculus with 3 samples.

Results

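The genes followed here are 8 genes of cholesterol synthesis and its control, measured in B cells sorted from the spleens of allergic mice. Hmgcs1, Idi1, Fdft1, Sqle, Lss and Cyp51 encode 6 enzymes of the pathway, and Insig1 and Srebf2 encode 2 of its regulators. They were chosen by gene name, with earlier results of these data known. Each name matched 1 row, which gives 8 of the 27088 genes of the table. In the SJMHE1 library, Insig1 stood at 51.6% of its level in the PBS library, and 5 of the 6 enzymes stood between 66.6% and 79.3%. Srebf2 stood at 96.6%, and the enzyme gene Lss was the exception, at 114% of its level in the PBS library.

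Cells make cholesterol from acetyl-CoA by way of mevalonate, isoprenoids, squalene and lanosterol. The transcription factor SREBP-2, the product of Srebf2, drives the genes of these enzymes. When the endoplasmic reticulum holds enough sterol, Insig proteins retain SREBP-2 and its escort Scap there, so that the factor is not cut and does not reach the nucleus. Insig1 is itself a target of SREBP-2, and lymphocytes that grow and divide are known to draw on this pathway for new membranes.

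The series holds B cells from female BALB/c mice, aged 13 weeks, in 3 groups named Control, PBS and SJMHE1. Both the PBS group and the SJMHE1 group were a model of allergic rhinitis. For this, 10 μg OVA with 2 mg of the adjuvant Al(OH)3 was injected into the peritoneum on days 0, 7 and 14. Then 100 μg OVA was put into the nose daily between days 21 and 35, with a break within this span. On days 0, 14 and 28, the one group was injected under the skin with PBS and the other with 10 μg of SJMHE1, a peptide from Schistosoma japonicum, and tissue was taken on day 36. SJMHE1 was given in incomplete Freund's adjuvant and PBS was not, so the peptide and this adjuvant cannot be told apart. Sorting gave the splenic B cells, and material of 3 mice was pooled into 1 library per group, so that no replicate check exists and no p-value is given. The libraries held 48267168 counts in PBS and 51280237 counts in SJMHE1. The library of the healthy Control group is not analysed here, since no column name of the table matches it.

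Levels are given as FPKM, which divides the reads of a gene by its length and by the size of the library. Differences are log2 ratios of FPKM, with SJMHE1 over PBS, and carry a 95% interval by the exact Clopper-Pearson method from the read counts. Such an interval holds counting error alone and says nothing of the variation between mice. Genes were compared when their FPKM was at least 1 in a library and above 0 in both, which held for 12433 genes and for all 8 members. The median log2 ratio of these genes was -0.01, with a 5th percentile of -0.82 and a 95th percentile of 0.64.

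Of the enzymes of the early pathway, the members Hmgcs1 and Idi1 were lower in the SJMHE1 library. In bulk RNA, fewer cells that express a gene and less RNA of it per cell cannot be told apart. Hmgcs1, which forms HMG-CoA, stood at 6.10 FPKM in PBS B cells (1540 counts) and at 4.84 FPKM in SJMHE1 B cells (1293 counts). Its log2 ratio was -0.33 (interval -0.44 to -0.23). Idi1, which interconverts the isoprenoid units, had 4.59 FPKM in PBS B cells and 3.38 FPKM in SJMHE1 B cells, from 885 and 690 counts. Its log2 ratio was -0.44 (interval -0.59 to -0.30). For both genes the ranges that counting error gives the FPKM did not meet between the libraries, as the plot of the levels shows.

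Of the enzymes that act from squalene synthesis onward, Fdft1, Sqle and Cyp51 were lower too. Fdft1, the squalene synthase, had 3.92 FPKM in PBS B cells and 2.61 FPKM in SJMHE1 B cells, from 887 and 626 counts. Its log2 ratio was -0.59 (interval -0.74 to -0.44). Sqle, which oxidizes squalene and is a rate-limiting step of the pathway, had 2.14 FPKM in PBS B cells and 1.45 FPKM in SJMHE1 B cells. With 654 and 470 counts it was the member with the fewest reads in each library, and its log2 ratio was -0.56 (interval -0.74 to -0.39). Cyp51, which removes a methyl group from lanosterol, had 5.37 FPKM in PBS B cells and 3.69 FPKM in SJMHE1 B cells, from 1303 and 947 counts. Its log2 ratio was -0.54 (interval -0.66 to -0.42). These 3 genes stood at 66.6%, 67.8% and 68.7% of their PBS level, in the order given.

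Lss, the lanosterol synthase, acts between Sqle and Cyp51 and went the other way. It stood at 1.68 FPKM in PBS B cells (996 counts) and at 1.92 FPKM in SJMHE1 B cells (1208 counts). The log2 ratio was 0.19 (interval 0.07 to 0.32). Summed over the 6 enzymes, the level was 23.8 FPKM in PBS and 17.9 FPKM in SJMHE1, and the median log2 ratio of the 6 was -0.49.

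**Figure D1:**
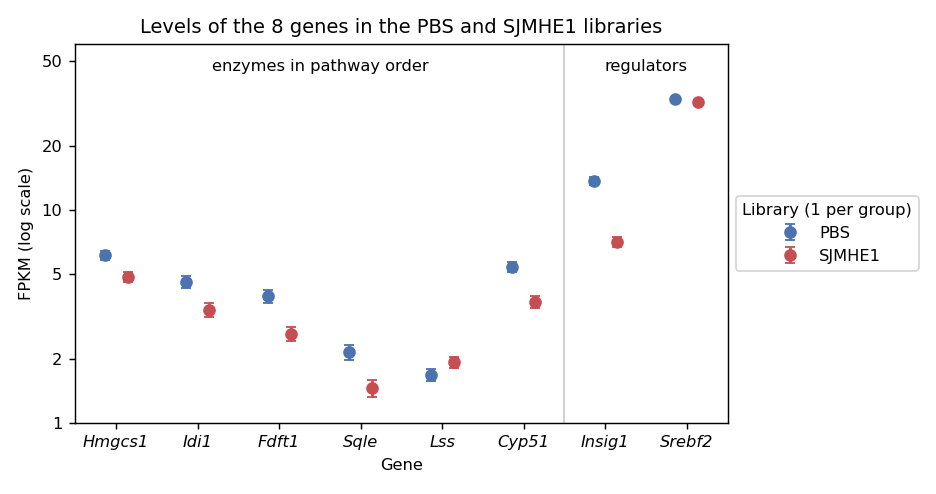
FPKM of the 8 members, on a log axis, in the PBS library (blue) and the SJMHE1 library (red). Points are the deposited values of 1 library per group and bars are 95% counting intervals. Insig1 stands at 13.7 and 7.06, 5 enzymes are lower in SJMHE1, Lss is higher, and Srebf2 is close to level at 33.1 and 31.9.

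Of the regulators, Insig1 had the lowest ratio of all 8 members. This gene, whose protein retains SREBP-2 in the endoplasmic reticulum, stood at 13.7 FPKM in PBS B cells (2322 counts) and at 7.06 FPKM in SJMHE1 B cells (1270 counts). It was 1.94-fold lower, with a log2 ratio of -0.95 (interval -1.05 to -0.85). Srebf2, by contrast, was the most abundant member in each library, at 33.1 FPKM in PBS and 31.9 FPKM in SJMHE1, from 13044 and 13330 counts. Its log2 ratio was -0.05 (interval -0.09 to -0.02), and its sign turned, to 0.032, when FPKM was rescaled to the same sum in each library. The level of Insig1 was 41.3% of that of Srebf2 in PBS and 22.1% in SJMHE1.

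None of the 8 members was lower by over 2-fold, against 3.57% of all genes compared. Insig1 and Fdft1, 2 of 8, were lower by over 1.5-fold, against 7.91% of all genes, and 0 of 8 were higher by over 1.5-fold, against 5.73%. Fdft1 stood at that limit, with a log2 ratio of -0.59, and Sqle stood just short of it, with -0.56. Of 7 other settings of pseudocount and scaling, counts scaled by library size kept both genes past 1.5-fold, and each of the others kept Insig1 alone. The counting interval lay wholly below 0 for 7 of 8 members, against 34.5% of all genes compared, and wholly above 0 for Lss, against 31.0%. Among 10928 genes that reach 1 FPKM and 50 counts in both libraries, where counting error is smaller, 4.15% were lower by over 1.5-fold. In that set, 1.24% of genes had a lower ratio than Insig1, 4.09% than Fdft1, 4.47% than Sqle and 4.81% than Cyp51. Idi1 and Hmgcs1 followed with 7.44% and 11.8%, and 43.1% of the genes were below Srebf2. Below Lss were 79.6%. Since the members were chosen with earlier results of these data known, these shares describe them and are not a test.

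**Figure D2:**
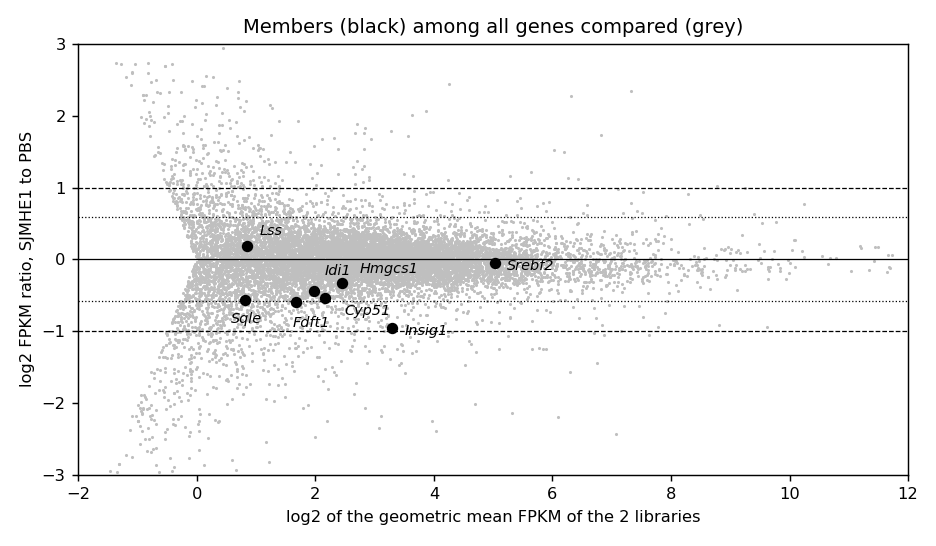
Log2 FPKM ratio, SJMHE1 to PBS, against the log2 geometric mean FPKM of the 2 libraries for the genes compared (grey), with the 8 members in black and 53 genes outside the axes. Dashed lines mark 2-fold and dotted lines 1.5-fold. Insig1 is the lowest of the members, at -0.95, and Lss the highest, at 0.19.

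Of the 28 pairs of members, 18 had intervals that did not meet. The intervals of Hmgcs1, Idi1, Fdft1, Sqle and Cyp51 overlapped with each other in every pair. Overlap does not show that 2 ratios are alike, and no interval of a difference was computed. The ratio of Hmgcs1, for example, was 0.25 above that of Fdft1 on the log2 scale. Insig1 lay below each of them, and the nearest, Fdft1, was 0.37 higher on the log2 scale. Srebf2 and Lss lay above them and differed from each other by 0.24. These intervals again hold counting error alone.

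The order of the levels was Srebf2, Insig1, Hmgcs1, Cyp51, Idi1, Fdft1, Sqle and Lss in the PBS library. Each neighbour in that order differed beyond its counting interval. In the SJMHE1 library the order was the same except that Lss, at 1.92, stood above Sqle, at 1.45. The counting intervals of Cyp51 and Idi1, at 3.69 and 3.38, overlapped there. The FPKM of these genes matches their counts divided by the length of all annotated exons together, up to a factor between 1.11 and 1.14. That length is 10787 bases for Lss, with 8 annotated transcripts, and 3093 bases for Insig1, with 2, so levels between genes depend on it.

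All 8 genes have the same coordinates in the table and in GENCODE M21 on GRCm38. Hmgcs1 (ENSMUSG00000093930) lies at chr13:119690379-119708260 and Idi1 (ENSMUSG00000058258) at chr13:8885501-8892451, both on the plus strand. Fdft1 (ENSMUSG00000021273) lies at chr14:63145150-63179578 on the minus strand. Sqle (ENSMUSG00000022351) and Srebf2 (ENSMUSG00000022463) lie far from each other on the plus strand of the same chromosome, at chr15:59315077-59331192 and chr15:82147181-82205379. Lss (ENSMUSG00000033105) lies at chr10:76531588-76557138 on the plus strand. Cyp51 (ENSMUSG00000001467) and Insig1 (ENSMUSG00000045294) lie at chr5:4081145-4104746 on the minus strand and at chr5:28071363-28078662 on the plus strand.

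Neighbouring genes and copies limit some of these counts, since the sources used here do not state whether the counting used strand. The last 774 bases of Fdft1 overlap with Ctsb on the other strand, which had 8409 counts in PBS and 8514 in SJMHE1, with a log2 ratio of -0.06. Of the 50-base windows in Fdft1 transcripts, 17.2% also occur in Ctsb and 9.38% in Gm6781. Cyp51 overlaps with Akap9 on the other strand by 166 bases, and Akap9 had a log2 ratio of 0.26. Of the Idi1 windows, 17.7% occur in Gm13502, which had 61 and 62 counts. Lss overlaps with 4930483K19Rik on the other strand by 11268 bases, and that gene had 8 and 14 counts. Hmgcs1 overlaps with Gm48342 on the other strand by 6190 bases, and that gene had 12 and 7 counts. The part of these reads in the ratios was not tested.

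Sequence in front of the genes is shown because SREBP-2 acts at their promoters. RefSeq promoter windows on GRCm38.p6, of 250 bases before the start and 50 after it, were found for 6 of the 8 members, Hmgcs1, Idi1, Lss, Cyp51, Insig1 and Srebf2. Letter patterns were searched on both strands. The pattern CCAAT, the box bound by NF-Y, a partner of SREBP-2 at many sterol-regulated promoters, was present in all 6 windows, against 37.4% of the 32851 windows of all genes. The match nearest to the start is printed here in capitals for each gene, on the strand of the gene, where a match on the opposite strand reads ATTGG.
Hmgcs1: gagtcccgggATTGGcagaggtagc
Idi1: ccaaggtgccATTGGctggcgaccg
Lss: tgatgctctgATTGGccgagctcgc
Cyp51: ctgtccgccaCCAATctggtcctga
Insig1: ccctcctcccATTGGctccggcggc
Srebf2: tcgcgcgccgATTGGctaatgcaag
The match began at base 11 after the start in Hmgcs1 and at -14 in Idi1, -62 in Lss, -29 in Cyp51, -216 in Insig1 and -135 in Srebf2, counted from the start. A relation of this match to the ratios was not tested.

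The core of the sterol regulatory element, the site of SREBP, was searched as TCACNCCAC and was found in 1 of 6 windows, that of Hmgcs1, against 1.24% of all windows. The stretch of Hmgcs1 at chr13:119690166-119690320 on the plus strand is printed with this core, which began at -137 from the start, and 2 CCAAT matches in capitals.
Hmgcs1: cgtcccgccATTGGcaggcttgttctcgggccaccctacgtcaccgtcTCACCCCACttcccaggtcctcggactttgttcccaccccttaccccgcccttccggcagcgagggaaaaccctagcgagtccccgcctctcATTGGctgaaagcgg
Insig1 had no match to these letters in its window. It held an E-box, CACGTG, as did 7.15% of all windows, which began at -101 from the start. The stretch at chr5:28071182-28071326 on the plus strand is printed with its CCAAT match and the E-box in capitals.
Insig1: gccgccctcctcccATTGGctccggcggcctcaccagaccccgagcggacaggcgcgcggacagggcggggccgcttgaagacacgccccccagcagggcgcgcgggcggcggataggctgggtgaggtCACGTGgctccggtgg
The GC box, GGGCGG, was present in all 6 windows, against 35.7% of all windows. A match of letters is a description and shows no binding.

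The other enzymes of the pathway were lower for the most part. Of 16 other enzymes, 12 were lower and 4 were higher in the SJMHE1 library, with a median log2 ratio of -0.18, beside -0.49 for the members and -0.01 for all genes compared. None was past 1.5-fold. The interval lay below 0 for 8 of them, against 34.5% of all genes compared, and above 0 for 2, against 31.0%. The highest was Ggps1, which leads isoprenoids away from sterols to geranylgeranyl groups, with 6.05 and 7.22 FPKM and a log2 ratio of 0.26. Fdps, which makes the farnesyl substrate of Fdft1, is named after its values were seen, with 3.23 and 2.27 FPKM and a log2 ratio of -0.51.

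**Figure D3:**
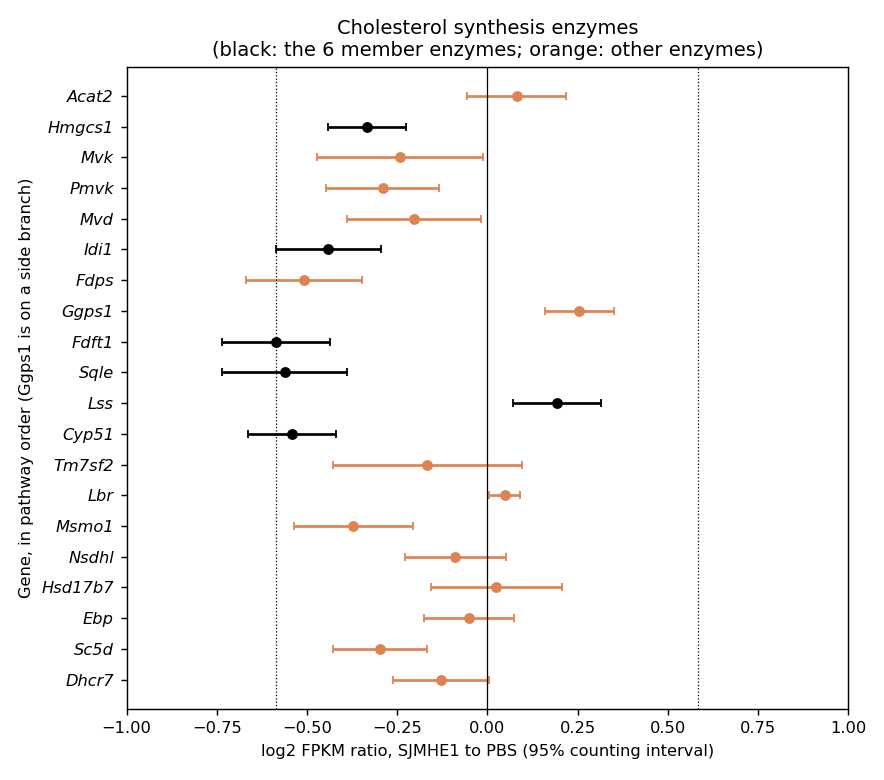
Log2 FPKM ratio, SJMHE1 to PBS, with 95% counting intervals for 20 enzymes in pathway order, the 6 member enzymes in black and 14 others in orange. Dotted lines mark 1.5-fold. Most points lie left of 0, from -0.59 for Fdft1 upward, and Ggps1 and Lss lie farthest to the right, at 0.26 and 0.19.

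The machinery that processes SREBP was close to level. In its list of 10 genes, 7 were higher and 3 were lower, with a median log2 ratio of 0.05, and none was past 1.5-fold. The highest was Mbtps2, a protease that cuts SREBP, with 2.27 FPKM in PBS B cells, 2.80 FPKM in SJMHE1 B cells and a ratio of 0.30. The lowest ratio in the list, -0.25, was that of Ubxn8, which is not known to act on SREBP and was listed in error. Without it, which was computed after seeing the data, 7 of 9 genes were higher and 2 were lower, with a median of 0.06. Insig2, the close relative of Insig1, had 5 and 5.41 FPKM, with a log2 ratio of 0.11 (interval -0.01 to 0.24), which lies apart from that of Insig1.

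Genes of cholesterol uptake and trafficking went in both directions, with more lower than higher. In the list for uptake and trafficking, 4 of 11 genes compared were higher and 7 were lower, with a median of -0.10. The interval lay below 0 for 7 of them, against 34.5% of all genes compared, and above 0 for 3, against 31.0%. None was higher by over 1.5-fold, against 5.73% of all genes compared. The 1 gene lower by over 1.5-fold, against 7.91%, was also lower by over 2-fold, against 3.57%. Gramd1a, which carries sterol from the plasma membrane to the endoplasmic reticulum, had the highest ratio, with 47.4 FPKM in PBS B cells, 65.6 FPKM in SJMHE1 B cells and a ratio of 0.47.

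Genes of cholesterol export and storage went in both directions, and none of those compared passed 1.5-fold. In the list for LXR, efflux and esterification, 5 of 8 genes were higher and 3 were lower, with a median of 0.11. Abca1, the exporter of cholesterol and a target of the sterol sensor LXR, had 20.9 and 28.8 FPKM and a log2 ratio of 0.46 (interval 0.43 to 0.49). Cyp27a1, which makes an oxysterol, was the lowest with a ratio of -0.48.

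Fatty acid genes that SREBP-1 drives went in both directions. Of 9 genes compared, 5 were higher and 4 were lower, with a median log2 ratio of 0.08, and none passed 1.5-fold. Scd2, a desaturase, had the highest ratio, with 13.3 FPKM in PBS B cells, 19.3 FPKM in SJMHE1 B cells and a ratio of 0.54. Its relative Scd1 was the most abundant of the list, with 194 and 247 FPKM and a log2 ratio of 0.35. Fads1 was the lowest of the 9 compared, with a ratio of -0.14 and an interval from -0.33 to 0.05. Other genes of the list stayed below 1 FPKM in both libraries and were not compared. Among these, Elovl6 had a log2 ratio of -0.93 (interval -1.26 to -0.60), from 215 and 121 counts. Acss2 had a log2 ratio of 0.37 (interval 0.13 to 0.61), from 252 and 346 counts.

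The sorted cells carried B cell markers at high levels in both libraries, and markers of other cells differed between them. All 15 B cell markers were present, with a summed FPKM of 8675 in PBS and 9050 in SJMHE1 and a median log2 ratio of 0.02. T cell markers summed to 74.4 and 37.1, and 10 of 11 compared were lower by over 2-fold, with a median of -2.08. The exception, Lck, was the most abundant of them, with 27.9 and 25.2 FPKM and a ratio of -0.15. Macrophage and monocyte markers summed to 131 and 75.8, with 7 of 12 higher and 5 lower and a median of 0.16. Most of the fall in this sum was that of Lyz2, with 88.8 and 37.4 FPKM. It was both the most abundant of these markers and the lowest, with a ratio of -1.25. Neutrophil markers summed to 408 and 494, with 3 of 8 higher. Erythroid markers summed to 152 and 200, with 8 of 8 higher, and plasma cell markers to 663 and 557, with 7 of 8 lower. No cell type marker found in the table was at 0 in either library. Cell cycle genes, which mark dividing cells, had a median of -0.28, with 12 of 15 lower, and summed to 189 and 166. Heat shock genes were higher in 10 of 10, with a median of 1.90. The part of these differences in the ratios of the 8 members was not tested.

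**Figure D4:**
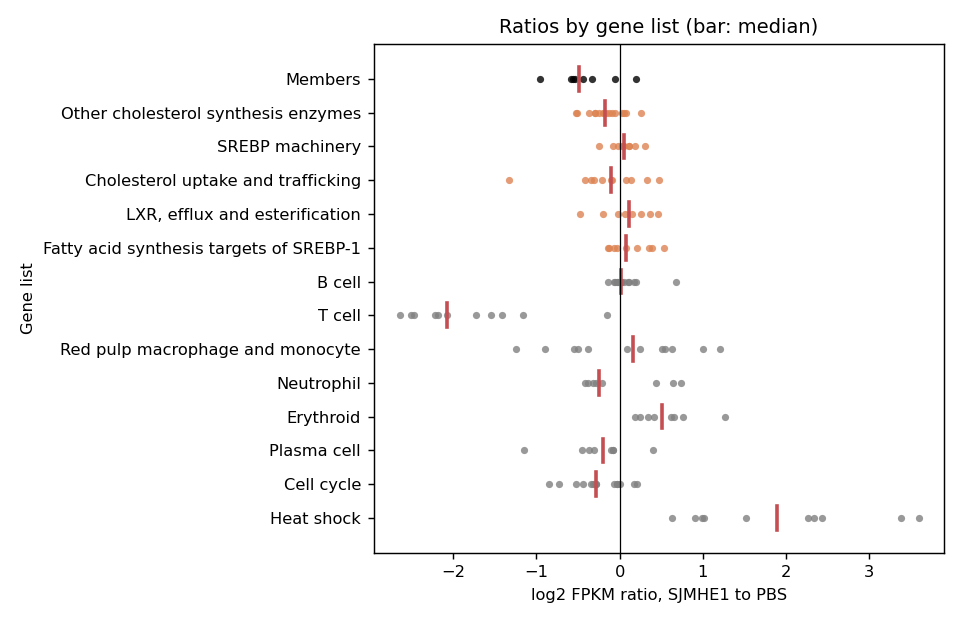
Log2 FPKM ratio, SJMHE1 to PBS, of each gene compared, by list, with members in black, 5 pathway lists in orange, and cell type, cell cycle and heat shock lists in grey. Red bars are medians. The median of the members, -0.49, lies below those of the 5 pathway lists, and T cell and heat shock genes lie at -2.08 and 1.90.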

How the data were processed

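Sorted spleen B cells were sequenced after depletion of ribosomal RNA, as 1 pooled library per group. Raw counts, which are whole numbers, and FPKM were deposited by the authors for 27088 genes. The submitters' processing notes name bcl2fastq 2.0, HISAT2, StringTie, DESeq2, limma and the build mm10. The counting tool, its strand setting and the annotation release are not given in the sources used here. The names of 2 value columns match no sample, and these were not used, so comparisons with the Control group were not made.

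From the deposited FPKM, log2 ratios without a pseudocount were computed, with Clopper-Pearson intervals from the counts. A model with replicates could not be fitted with 1 library per group. In each library a count of 0 would allow 3 counts. The members and the 13 gene lists were chosen with earlier results of these data known. The naming rule took the 8 members and, from the genes compared in each pathway list, those past 1.5-fold with at least 50 counts in both libraries. It also took the highest and lowest ratio of each pathway list. For cell type and cycle lists it took the most abundant gene and the extremes, of which Lyz2 and Lck alone are named. Insig2 and Scd1 are named outside this rule, and Elovl6 and Acss2 are named after their values were seen. Values of some genes of these lists are not reported here, though the counts and medians of the lists include them. Alternatives were pseudocounts, filters and scalings, with TMM from edgeR and DESeq2 size factors. The ratio and interval calculations were checked on simulated counts that held counting error alone. That check says nothing of the spread between mice or of the FPKM values. Python 3.11.15, numpy 2.4.6, pandas 2.3.3, scipy 1.17.1, matplotlib 3.10.9, R 4.3.3, edgeR 4.0.16 and DESeq2 1.42.0 were used.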

Additional observations from a re-analysis of the deposited data

How the results depend on the processing

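No paired analysis was possible because there is only a single library for PBS and for SJMHE1. Of 56 values of single members under 7 alternative settings, 53 stayed within the counting interval of the reported value. Sqle moved to -0.36 with a pseudocount of 1, which shrinks the ratios of genes with a low FPKM by its construction. Srebf2 moved to -0.01 with DESeq2 size factors and turned to 0.032 with FPKM rescaled to equal sums, which adds 0.08 to every ratio. Insig1 ranged from -0.96 to -0.86 and Lss from 0.12 to 0.28. The median of the other synthesis enzymes, -0.18, lay between -0.18 and -0.09. The number of all genes past 2-fold, 302 higher and 444 lower, became 100 and 146 at pseudocount 1, then 1367 and 2018 without a filter, 101 and 151 where both libraries reach 1 FPKM, and 89 and 171 for protein-coding genes alone, where the filters change the number of genes by their construction. The alternatives for the Control group were not run. The members had at least 470 counts in each library. At this depth 18 of 28 pairs of members had ratio intervals apart, and 1 member had an interval wholly past 1.5-fold. With 1 pooled library per group the spread between mice is unknown.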
